A study of Mus musculus with 2 samples.

Results

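Genomic imprinting restricts the expression of a gene to the copy inherited from the mother or the copy inherited from the father. Several imprinted loci also give rise to microRNAs (miRNAs), small RNAs that pair with target mRNAs through a seed near their 5′ end and lower the output of those mRNAs. Such miRNAs are cut as hairpins from the transcript that carries them, so imprinting of the host can extend to the miRNA. Imprinted genes are known for their control of fetal growth, and many are active in the embryo.

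The 5 miRNA genes described here lie at imprinted loci outside the large Dlk1-Dio3 array. They are Mir335 in Mest, Mir483 in Igf2, Mir675 in H19, and Mir296 and Mir298 at the Gnas locus. They were chosen by gene symbol, matched through gene identifiers, and are 5 of the 1973 miRNA genes with a row of counts. The choice was made with their own-strand read counts in these libraries known, so their levels and differences are given as descriptions, with no test. Small RNA shorter than 30 nt was sequenced from neural tube, the embryonic precursor of brain and spinal cord, of B6NCrl mice at embryonic day 11.5. Both samples belonged to 1 group, healthy embryos of both sexes for which no mutant allele is named, as 2 biological replicates. Replicate 1 was a pool of 109 embryos and replicate 2 a pool of 88. The samples hold no contrast of tissue, age or agent. The counts carry no parental allele, so parental origin was not measured.

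Levels are counts on the gene's own strand per 1000000 such counts over all miRNA genes (CPM). These totals were 3708662 in replicate 1 and 4055883 in replicate 2, so a count of 0 allows up to 3 counts, or 0.809 CPM and 0.740 CPM. As the labels state no molecular identifiers, the intervals and limits describe counting error alone. In a bulk sample, a change in the number of cells of a type and a change in RNA per cell cannot be told apart. All 10 neural marker genes with a row of counts were detected with at least 10 counts over both libraries. Together they held 8724 CPM in replicate 1 and 7520 CPM in replicate 2, and Mir92b of neural progenitors led them with 5250 and 4708 CPM.

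RefSeq, on build GRCm38.p6, held both arms of all 5 hairpins, and its hairpin sequences were identical to those of GENCODE M21. The 10 arms are printed 5′ to 3′, with the seed (bases 2 to 8) in capitals, because the seed sets which mRNAs a miRNA can pair with.
mmu-miR-335-5p: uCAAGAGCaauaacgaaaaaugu
mmu-miR-335-3p: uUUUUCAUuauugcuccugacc
mmu-miR-483-5p: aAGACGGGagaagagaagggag
mmu-miR-483-3p: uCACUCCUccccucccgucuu
mmu-miR-675-5p: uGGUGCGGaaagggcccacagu
mmu-miR-675-3p: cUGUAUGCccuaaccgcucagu
mmu-miR-296-5p: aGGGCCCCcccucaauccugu
mmu-miR-296-3p: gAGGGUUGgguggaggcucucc
mmu-miR-298-5p: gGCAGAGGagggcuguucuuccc
mmu-miR-298-3p: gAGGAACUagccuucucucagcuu

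The 10 arms carried 10 different seeds. None of these seeds occurred in a mature miRNA of another gene among the 1738 mature entries of the table, in which 32.0% of entries shared their seed with another gene. Requiring only bases 2 to 7 gave 4 matches, miR-7646-5p to miR-335-5p, miR-6986-3p to miR-335-3p, miR-3110-3p to miR-483-3p and miR-5621-3p to miR-296-5p. Of these, Mir6986 held 3 and 0 counts in replicates 1 and 2, while Mir3110 and Mir5621 each held 1 and 2. Mir7646 was not analysed here. The shorter matches measured here thus held at most 3 counts each in a library.

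The precursors also differed in base composition. The hairpins of Mir335, the most abundant of the 5 genes, and of Mir483, the gene that differed most between the libraries, are printed with both mature arms in capitals.
Mir335 hairpin: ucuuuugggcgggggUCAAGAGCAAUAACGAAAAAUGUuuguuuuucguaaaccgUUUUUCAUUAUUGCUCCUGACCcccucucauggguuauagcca
Mir483 hairpin: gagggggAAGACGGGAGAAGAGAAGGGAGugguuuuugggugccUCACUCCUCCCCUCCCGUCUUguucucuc

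The Mir335 hairpin is 98 nt long with 42.9% G and C, and its 5p arm has 30.4%. The Mir483 hairpin is 73 nt long with 58.9% G and C, and its 5p arm is rich in purines and its 3p arm in pyrimidines. The other 3 hairpins had 63.1% (Mir675), 63.3% (Mir296) and 53.7% (Mir298), against a median of 51.5% over the 444 miRNA genes with at least 10 counts summed over both libraries. Mir335 was thus the one member below that median. Minimum free energies computed with RNAfold were -44.3 kcal/mol for Mir335, -33.8 for Mir483, -56.0 for Mir675, -43.2 for Mir296 and -42.7 for Mir298. Per nucleotide, 98.2% of the 444 hairpins were less stable than that of Mir675, the least abundant of the 5 genes. A relation of stability to level was not tested. No member shared a run of 20 nt with any of the 2201 other annotated hairpins. The longest shared run was 12 nt for Mir298 and 11 nt for each of the others.

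Mir335 lies on mouse chromosome 6 from 30741299 to 30741396 (GRCm38, plus strand), in an intron of Mest, 17.75 kb from the annotated 5′ end of that gene. Mest is expressed from the paternal copy and encodes a protein of the alpha/beta-hydrolase fold family. Mir483 lies on chromosome 7 from 142654924 to 142654996 (minus strand), in an intron of Igf2, which encodes a paternally expressed fetal growth factor, and of the overlapping gene model Gm49394. Mir675 lies on the same strand 77.8 kb away, from 142577064 to 142577147, within an exon of H19, a maternally expressed noncoding RNA. Mir296 (174267047 to 174267125) and Mir298 (174267504 to 174267585) lie on the minus strand of chromosome 2 with 378 nt between them.

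The annotation placed neither Mir296 nor Mir298 inside a host gene on either strand. Of the genes of the locus set beforehand, Nespas lies on their strand. It is a noncoding antisense RNA known to be expressed from the paternal copy in mouse. Its annotated 3′ end lies 13.7 kb upstream of Mir298 and 14.1 kb upstream of Mir296. Whether another gene model lies nearer was not searched. Gnas, which encodes a G protein subunit, runs on the plus strand with its annotated start 16.7 kb from Mir298. For these 2 genes, an imprinted host is therefore background knowledge and not a feature of the annotation used.

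**Figure D1:**
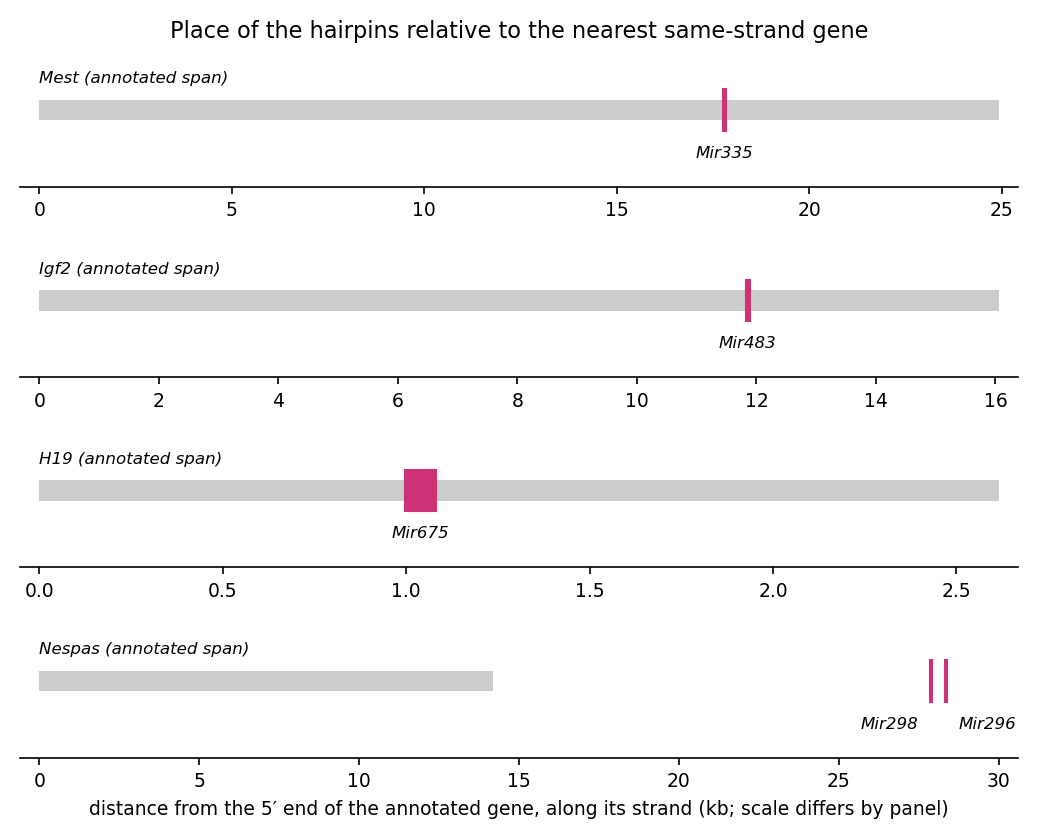
Position of each hairpin (coloured) relative to a gene of its locus on its own strand (grey, annotated span), in kb from that gene's 5′ end. These genes were set beforehand, and each panel has a separate scale. Mir335, Mir483 and Mir675 lie inside Mest, Igf2 and H19, while Mir298 and Mir296 lie 13.7 kb and 14.1 kb beyond the annotated end of Nespas.

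The 5 genes covered a wide range of abundance. Mir335 had 175204 counts in replicate 1 and 184998 in replicate 2, or 47242 and 45612 CPM (mean 46427 ± 1152, SD, n = 2). It ranked 4 among all miRNA genes in each library. In human breast cancer cells its miRNA is known as a suppressor of metastasis. It supplied 73.0% of the counts of the 5 genes in replicate 1 and 76.7% in replicate 2. The 5 genes together took 6.47% of all counts in replicate 1 (95% exact interval 6.45 to 6.50) and 5.95% in replicate 2 (5.92 to 5.97).

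The neighbours at the Gnas locus followed at nearly equal levels. Mir296, whose miRNA is known to target Nanog in mouse embryonic stem cells, had 27818 and 27249 counts, or 7501 CPM in replicate 1 and 6718 CPM in replicate 2. Mir298, whose miRNA has been linked in mouse cells to the mRNA of the protease Bace1, had 29445 and 24865 counts, or 7940 CPM in replicate 1 and 6131 CPM in replicate 2. The ranges of these genes overlapped, and their means were 7110 ± 553 and 7035 ± 1279 CPM (SD, n = 2). They ranked 27 and 29 by mean level.

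Mir483 had 7362 counts in replicate 1 and 3878 in replicate 2, or 1985 CPM (95% exact interval 1940 to 2031) and 956 CPM (926 to 987). Its mean was 1471 ± 728 CPM (SD, n = 2), and it ranked 71 in replicate 1 and 93 in replicate 2. In human cancer cells, the 3p arm of its miRNA is known to repress the apoptosis gene BBC3. Mir675 was the lowest, with 217 and 199 counts, or 58.5 CPM (51.0 to 66.8) in replicate 1 and 49.1 CPM (42.5 to 56.4) in replicate 2. Mir675, known from mouse placenta as a brake on growth that is released from H19, ranked 241 and 238. Both libraries therefore gave the order Mir335, then Mir296 and Mir298, then Mir483, then Mir675, and the ranges overlapped only between Mir296 and Mir298.

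**Figure D2:**
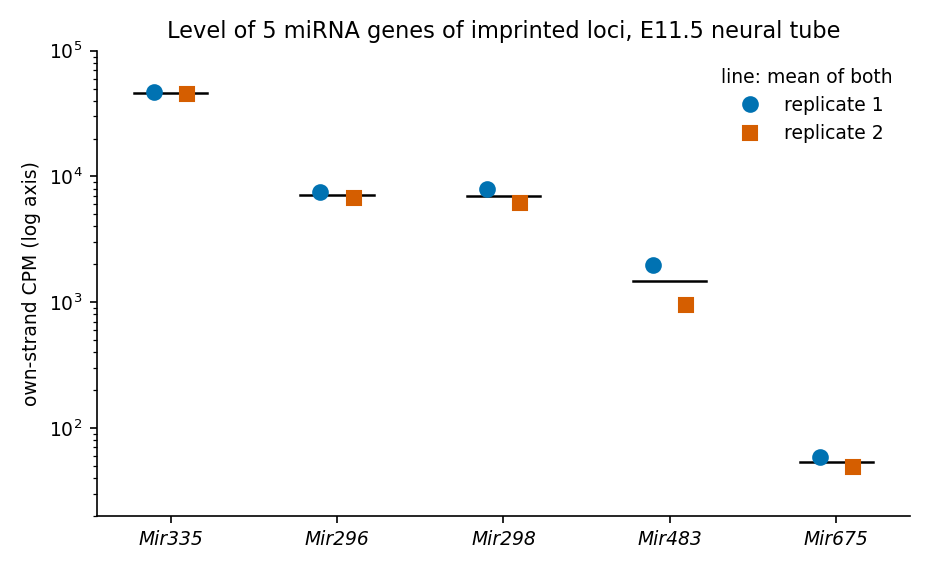
Own-strand CPM on a log axis for the 5 genes, with replicate 1 as circles, replicate 2 as squares and the mean of both as a line. Mir335 lies near 46427 CPM and Mir675 near 53.8 CPM, and the separation of the libraries is widest for Mir483, at 1985 and 956 CPM.

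Mir483 differed most between the libraries, and the other 4 genes lay within 1.5-fold. The ratio of replicate 1 over replicate 2 was 2.08 for Mir483 (95% exact counting interval 2.00 to 2.16). It was 1.30 for Mir298 (1.27 to 1.32), 1.19 for Mir675 (0.979 to 1.45), 1.12 for Mir296 (1.10 to 1.14) and 1.04 for Mir335 (1.03 to 1.04). These ratios compare the libraries, not conditions. Of the 5 genes, 1 was at least 1.5-fold apart, against 28.4% of the 444 genes passing the minimum of 10 summed counts. The same gene was at least 2-fold apart, against 9.23%. These shares are background only, since the counts were known when the genes were chosen. Of all genes 1.5-fold apart, 104 were higher in replicate 1 and 22 in replicate 2. Replicate 1 also had the higher share of unmapped reads, 24.5% against 15.2% in replicate 2, and its own-strand counts made up 43.5% of all reads, against 53.0% in replicate 2. Their part in the ratios was not tested.

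Scaling by the total placed the median of all 444 genes at a log2 ratio of 0.27 toward replicate 1, so the 5 genes are also given relative to that median. On the log2 scale, Mir483 lay 0.79 above it and Mir298 0.10 above it, Mir675 lay at -0.01, Mir296 at -0.11 and Mir335 at -0.22. At or above the ratio of Mir483 were 33 of the 444 genes, itself included. Of the 79 genes with a mean level at or above that of Mir483, 1 reached its ratio, which was Mir483 itself. Both cuts are Mir483's own values, and Mir351 among these genes came close, at a log2 ratio of 0.99 against 1.05. Scaling by the trimmed mean of M values (TMM) moved the median of all genes to -0.02, and Mir483 was then 1.70-fold and Mir298 1.06-fold higher in replicate 1. Under that scaling Mir335 (ratio 0.850), Mir296 (0.917) and Mir675 (0.979) lay on the side of replicate 2. TMM scaling again gave 1 of the 5 genes at least 1.5-fold apart, against 19.1% of all genes (45 higher in replicate 1 and 40 in replicate 2). It gave 0 of the 5 at least 2-fold apart, against 8.56%.

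**Figure D3:**
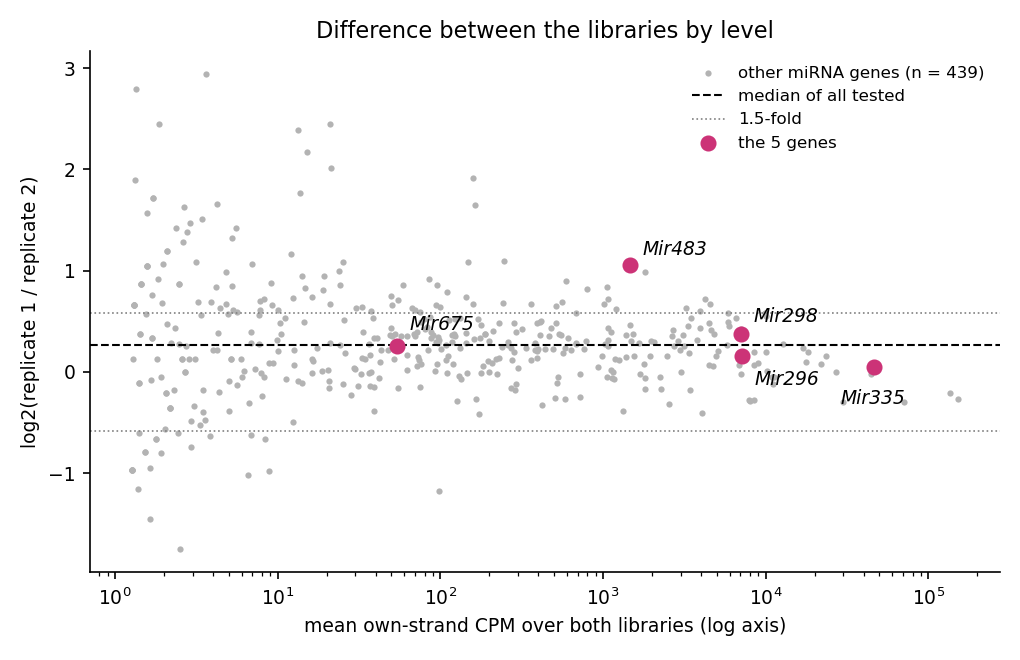
Log2 ratio of replicate 1 over replicate 2 (own-strand total scaling) against mean CPM on a log axis for the 444 miRNA genes with at least 10 summed counts, with the 5 genes coloured, the median of all genes dashed (0.27) and 1.5-fold dotted. Mir483 lies above the 1.5-fold line and the other 4 genes lie between the lines.

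**Figure D4:**
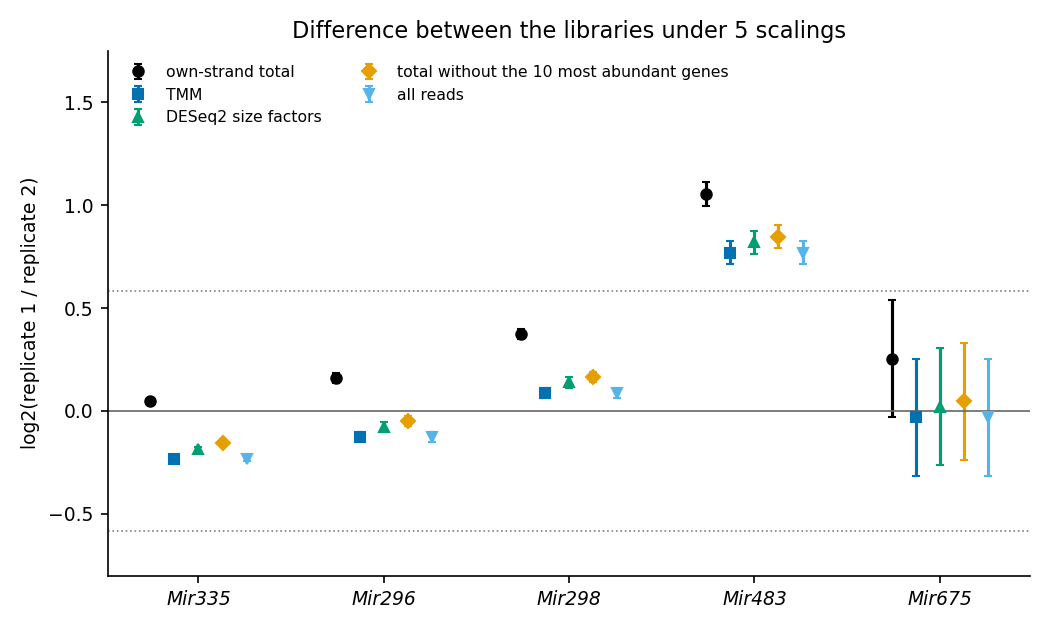
Log2 ratio of replicate 1 over replicate 2 for each gene under 5 scalings, with 95% counting intervals as bars and 1.5-fold as dotted lines. Mir483 stays above 1.5-fold under all 5, from 1.70-fold to 2.08-fold, while Mir335 and Mir296 lie above 0 with the own-strand total and below it with the other 4.

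Ratios of genes within 1 library need no scaling. Their change between the libraries is the quotient of the replicate ratios above, so they restate the same counts free of the choice of total. Mir483 counts were 33.9 times those of Mir675, its neighbour across the Igf2-H19 domain, in replicate 1 (95% exact interval 29.6 to 39.0) and 19.5 times in replicate 2 (16.9 to 22.6). That ratio was 1.74 times as high in replicate 1 (95% counting interval 1.43 to 2.12). Against Mir335, Mir296 and Mir298, the count ratio of Mir483 was higher in replicate 1 by 2.00-fold (1.93 to 2.09), 1.86-fold (1.78 to 1.94) and 1.60-fold (1.54 to 1.67). Mir483 thus differed from each of the other 4 genes in the same direction and by more than counting error, and whether it varies this far between other pools was not measured. Mir483 and Mir675 lie 77.8 kb apart in 1 imprinted domain, and their ratio of counts was not fixed. That was not particular to this pair, since the ratios of Mir483 to Mir335, Mir296 and Mir298 changed as well.

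The neighbours at the Gnas locus stayed close to 1 to 1. Mir298 over Mir296 was 1.06 in replicate 1 (1.04 to 1.08) and 0.913 in replicate 2 (0.897 to 0.928), so the order of the pair turned between the libraries. The change of 1.16-fold (1.13 to 1.19) exceeded counting error but was smaller than every change of a ratio with Mir483. Mir335 counts were 23.8 times those of Mir483 in replicate 1 and 47.7 times in replicate 2, and 807 and 930 times those of Mir675. Capture of each miRNA by the library protocol was not measured, and the ratios are of counts and not of molecules.

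**Figure D5:**
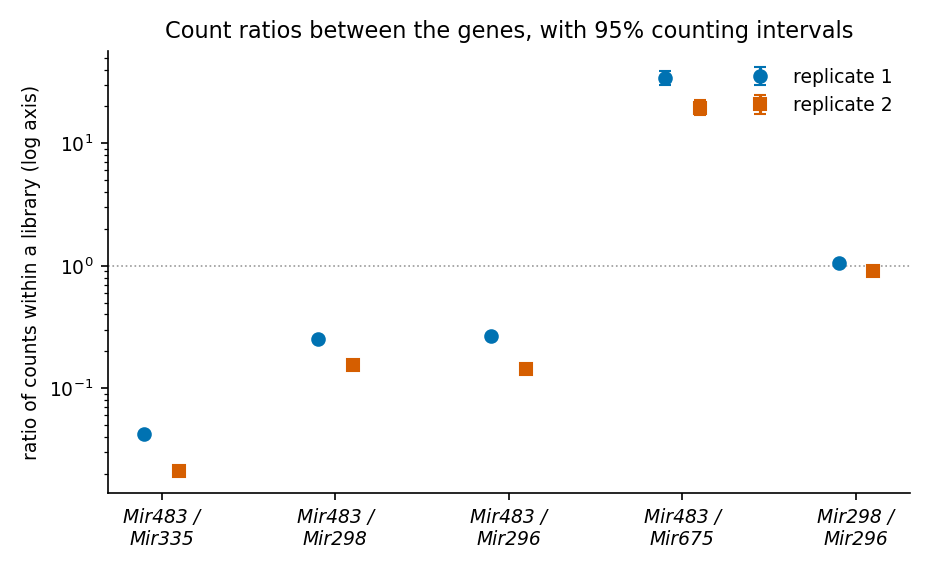
Ratio of counts between genes within each library (log axis), with replicate 1 as circles, replicate 2 as squares and 95% exact counting intervals as bars. Every ratio with Mir483 on top is higher in replicate 1, for example 33.9 against 19.5 over Mir675, and Mir298 over Mir296 lies on both sides of 1.

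Markers of other tissues that a dissection could include differed between the libraries as well. The 5 muscle genes with a row of counts together held 1398 CPM in replicate 1 and 793 CPM in replicate 2 (log2 ratio 0.82). Nearly all of this came from Mir206 of skeletal muscle, at 1358 and 761 CPM, while Mir133a-1 and Mir133a-2 were at 0 in both libraries and Mir1a-1 had 1 and 0 counts. The 7 mesenchyme genes, led by Mir214, held 24358 and 17966 CPM (log2 ratio 0.44). Each was higher in replicate 1, as were 8 of the 10 neural genes. Mir199a-1 (0.09) and Mir199b (0.22) lay below the median log2 ratio of all genes, 0.27. Mir143, and Mir133b of the muscle list (0.27 each), lay at it. The 3 blood genes, led by Mir451a, held 786 and 559 CPM (0.49). The mesenchyme and blood sums stayed within 1.5-fold (ratios of replicate 1 over replicate 2 of 1.36 and 1.41), while the muscle sum did not (1.76). As sums, these lists lay above the median log2 ratio of all genes, 0.27. The sum of the neural list (0.21), the endothelial gene Mir126a (24945 and 22302 CPM, 0.16) and the liver gene Mir122 (7.82 and 7.89 CPM, -0.01) lay below it. Gene by gene, the neural list lay on both sides. Mir92b (0.16), which led the sum, Mir9-3 (-0.005) and Mir9-2 (-0.18) lay below the median. Its other genes lay above, from Mir124a-1 (0.27) to Mir128-1 (0.79), so the lists were not separated at the level of genes. Among the marker genes, 4 of the muscle, 3 of the mesenchyme and 7 of the neural list share 20 nt with a further hairpin, which makes them uncertain. The part of these tissues in the difference of Mir483 was not tested.

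Reads on the opposite strand of the 5 genes were almost absent, a feature that did not enter their choice. Mir335 had 4 such reads in replicate 1, or 0.00228% of its reads on either strand (95% exact interval 0.000622 to 0.0058), and 0 in replicate 2. The other 4 genes had 0 in both libraries. A count of 0 allows up to 0.041% and 0.077% for Mir483 in replicates 1 and 2, 0.0108% and 0.0110% for Mir296, 0.0102% and 0.0121% for Mir298, and 1.38% and 1.51% for Mir675. Over all miRNA genes, 2.07% of reads in replicate 1 and 1.66% in replicate 2 were on the opposite strand. Of these opposite-strand reads, 4 genes held 74.1% in replicate 1 and 71.7% in replicate 2. No opposite-strand read was counted in either library for 392 of the 444 genes with enough counts, or 88.3%, so a count of 0 there is the usual state and not particular to the genes described.

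A list of 58 genes known to be imprinted, outside Dlk1-Dio3 and Sfmbt2, was searched for further miRNA genes on the same strand. With the 5 genes always included, the list came to 9 miRNA genes, of which 7 had at least 10 summed counts. Mir3099, in an intron of Usp29 of the imprinted Peg3 domain (chromosome 7, 6803587 to 6803670, plus strand), had 244 and 237 counts, or 65.8 CPM in replicate 1 and 58.4 CPM in replicate 2. Its range overlapped that of Mir675. Gm23134, in an intron of Blcap and on the opposite strand to the imprinted Nnat, had 28 and 12 counts (7.55 and 2.96 CPM). It shares 20 nt with another hairpin and is uncertain. Mir489 and Mir653, both in Calcr, had 0 counts in both libraries.

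The summed level of the list was 64799 CPM in replicate 1 and 59528 CPM in replicate 2, mostly from Mir335. The median log2 ratio of its 7 detected genes was 0.25, against 0.27 for all 444 genes, and its members ran from 0.05 (Mir335) to 1.32 (Gm23134). At least 1.5-fold apart were 2 of the 7, Mir483 and Gm23134, a share near the 28.4% of all genes.

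Neighbouring miRNA genes outside the imprinted hosts had levels of their own. Within 1 Mb of Mir335 on chromosome 6 lie Mir183, Mir96 and Mir182, a sensory organ cluster on the minus strand 571.6 to 575.3 kb away, at 8462 ± 1127, 3433 ± 297 and 11279 ± 295 CPM (SD, n = 2). Mir29a, 321.3 kb away, held 41.0 ± 6.78 CPM, while Mir29b-1 had 2 counts in each library and Gm23049 had 0. Both Mir29b-1 and Gm23049 share 20 nt with another hairpin, so their low counts do not show absence. Around Mir483 and Mir675, the other genes within 1 Mb were Mir3104, Mir7063 and Mir7064, with at most 4 counts in a library. Around Mir296 and Mir298 they were Gm27591 and Mir6340, with 0 counts in both libraries. Gm27591 shares 20 nt with another hairpin, so its count of 0 does not show absence. Within 1 Mb at the Igf2-H19 and Gnas loci, nearly all miRNA counts thus came from Mir483, Mir675, Mir296 and Mir298.

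The genes outside the list with the most similar levels were found by distance in log2(CPM + 1) over the 2 libraries. They were Mir17 (distance 0.10) and Mir99a (0.89) for Mir335, Mir30a (0.09) and Mir181c (0.13) for Mir296, and Mir219a-2 (0.04) and Mirlet7i (0.19) for Mir298. For Mir675 they were Mir24-2 (0.09) and Mir152 (0.12). For Mir483 they were Mir301 (0.43), at 1693 and 1229 CPM, and the X-linked Mir351 (0.44), at 2401 CPM in replicate 1 and 1211 CPM in replicate 2, a ratio of 1.98. Mir219a-2 and Mir24-2 share 20 nt with another hairpin, so their counts are less certain. With 2 libraries, such closeness describes level only.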

How the data were processed

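The authors deposited unnormalized counts of reads over miRNA genes, 1 table per library, on assembly mm10 with GENCODE M4, per the file descriptions deposited with them. The 3 unnamed columns were read as counts on either strand, the own strand and the opposite strand, since the first equalled the sum of the others for every gene. Neither aligner nor counter is given in the sources used here. Rows naming no gene, 56.5% of reads in replicate 1 and 47.0% in replicate 2, were left out. Unmapped reads were 24.5% in replicate 1 and 15.2% in replicate 2. Multimapping reads were 25.2% in replicate 1 and 27.3% in replicate 2, and their absence lowers the counts of genes with near-identical copies. The replicates are separate pools per the labels.

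Symbols, places and hosts came from GENCODE M21 (1894 of 1973 genes matched by identifier), and sequences from RefSeq (GRCm38.p6). CPM, exact Clopper-Pearson and conditional binomial intervals were computed with Python 3.11.15 and scipy 1.17.1, log2 ratios with a pseudocount of 0.5 counts. Intervals of a change in a ratio used the normal approximation on the log scale. Hairpins were folded with ViennaRNA 2.7.2. Scaling alternatives used edgeR 4.0.16 (TMM) and DESeq2 1.42.0 (size factors). With 1 group, no test was made. The ratio code was tested on simulated data.

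The members, lists and rules were chosen with earlier results of these data known. Named genes were the members, other listed genes with at least 10 summed counts, the 2 nearest genes in level, up to 4 detected genes sharing a seed, and the leading marker of each list. Genes within 1 Mb, matches to bases 2 to 7, listed genes at 0 and further marker genes were named after their values were seen.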

Additional observations from a re-analysis of the deposited data

Results flagged for a closer look

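Mir335 had 4 reads on the opposite strand in replicate 1, in a column outside the own-strand measurement. They made up 0.00228% of its reads on either strand in that library. Replicate 2 had 0.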

How the results depend on the processing

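Of 98 recomputed values, 65 moved by no more than the spread of the libraries or the counting interval, and 33 moved further. For the count of genes, the limit was 1.5-fold. With 2 libraries, leaving out either moves a mean by no more than the SD, so those values were within the spread in advance. A ratio counted as turned only if it was at least 1.5-fold, which held for Mir483 alone, and 0 turned direction. Per 1000000 of all reads, the mean levels of Mir335, Mir483, Mir675, Mir296 and Mir298 were 22352, 685, 25.7, 3410 and 3350. With the 10 most abundant genes out of the total they were 108723, 3362, 125, 16604 and 16343 CPM. With Mir335 out of the total, its own level was 48688 CPM. Within a library, each of these totals rescales all genes alike, but the factor differs between the libraries.

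The ratio of replicate 1 over replicate 2 for Mir335, Mir483, Mir296 and Mir298 was 0.850, 1.70, 0.917 and 1.06 with TMM scaling, 0.880, 1.76, 0.949 and 1.10 with DESeq2 size factors, 0.897, 1.80, 0.967 and 1.12 without the 10 most abundant genes, and 0.850, 1.70, 0.916 and 1.06 per all reads. For Mir675 it was 0.979 with TMM scaling and 0.978 per all reads. Mir335 and Mir296 thus changed side under all 4 of these scalings, Mir675 under these 2, Mir483 and Mir298 under none.

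Genes at least 1.5-fold apart numbered 126, against 356 with at least 1 summed count and 52 with at least 100, and 41 were 2-fold apart. Without Mir335, the summed level of the list was 15736 CPM.

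Leaving out each replicate in turn gave Mir483 at 956 to 1985 CPM and Mir483 over Mir675 at 19.5 to 33.9. No paired analysis was possible because there was 1 group. The interval of the Mir675 ratio, 0.979 to 1.45 from 217 and 199 counts, includes 1, so a difference was not detectable at this depth.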
